A study of Homo sapiens with 6 samples.

Results

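The 9 genes described here are the FOS family (FOS, FOSB, FOSL1 and FOSL2), the JUN family (JUN, JUNB and JUND), MYC and its partner MAX, taken by gene name from a table of 58735 genes, in which each name occurred once. FOS and JUN proteins pair through leucine zippers to form AP-1, a transcription factor that responds to growth factors, stress and cytokines through the MAP kinases. FOS proteins bind DNA only with a partner such as a JUN protein, whereas JUN proteins can also pair with each other. MYC pairs with MAX to activate genes of ribosome production, metabolism and cell division, and MAX also pairs with the MXD proteins, which oppose MYC. In lung adenocarcinoma with a mutant EGF receptor, as in PC9, AP-1 and MYC lie downstream of the receptor's ERK signaling.

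The RNA-seq compared PC9-BrM3 cells in which AKR1B10 was silenced by a targeted shRNA (BrM3-shAKR1B10) with PC9-BrM3 cells carrying a negative control shRNA (BrM3-shNC), with 3 libraries in each group. PC9-BrM3 was derived from the human lung adenocarcinoma line PC9 by repeated passage through brain metastases in immunodeficient mice. All cells were in routine culture in RPMI1640 with fetal bovine serum, and the shRNAs were carried by a lentiviral vector. The labels give the genotype of BrM3-shNC as WT, although these cells carry the control vector. A single targeting vector was sequenced, so effects of this shRNA and of the loss of AKR1B10 cannot be told apart. The labels do not say that the libraries came from separate cultures, so the p-values measure the spread between these libraries, which may be technical.

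Reads on genes numbered between 16964504 and 18709028 per library. The FPKM values (fragments per kilobase of gene, scaled to a library size) were divided by sizes between 16911164 and 18350584. These sizes were above the reads on genes in each silenced library and below them in each control. With them, 3 reads on a gene with 1000 exonic bases equal between 0.163 and 0.177 FPKM. AKR1B10 was at 107.2 to 110.2 FPKM in the silenced libraries and 772.0 to 798.7 FPKM in the controls. Of the 8 epithelial markers, all were expressed, with a summed level of 3264 to 3356 FPKM in the silenced libraries and 3082 to 3455 FPKM in the controls. The summed markers of leukocytes (0.993 to 1.08 against 1.02 to 1.39 FPKM), fibroblasts (1.20 to 1.37 against 2.03 to 2.08 FPKM), endothelial cells (2.10 to 2.38 against 1.52 to 1.81 FPKM) and astrocytes and neurons (1.76 to 2.21 against 2.09 to 2.45 FPKM) were low, with LYZ, COL1A2, DCN, LUM and KDR at 0 in all libraries. Of these other markers, the fibroblast gene COL1A1 fell (log2 fold change -0.67) and the endothelial gene CDH5 rose (0.65), both at a mean under 2 FPKM in each group, and the epithelial marker MUC1 rose (0.63). The part of these markers in the values below was not tested. In bulk RNA, fewer cells with a transcript and less transcript per cell cannot be told apart.

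To count as changed, a gene needed a limma p, adjusted by Benjamini-Hochberg, under 0.05 and a log2 fold change above 0.5 or below -0.5, with 13150 genes tested. Of the 8 members tested, FOS, FOSL1 and MYC fell in BrM3-shAKR1B10 and none rose, beside 7.45% lower and 5.83% higher among all genes tested. FOSL2 and JUN were higher in BrM3-shAKR1B10 with small adjusted p-values but below the fold threshold. JUNB, JUND and MAX did not pass the test in either direction. FOSB, the lowest of the 9, had a mean of 0.885 FPKM and was left out of the main test by the minimum of 1 FPKM. In 5 of the 8 tested members the values of the groups did not overlap, as in 54.7% of all genes tested.

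**Figure D1:**
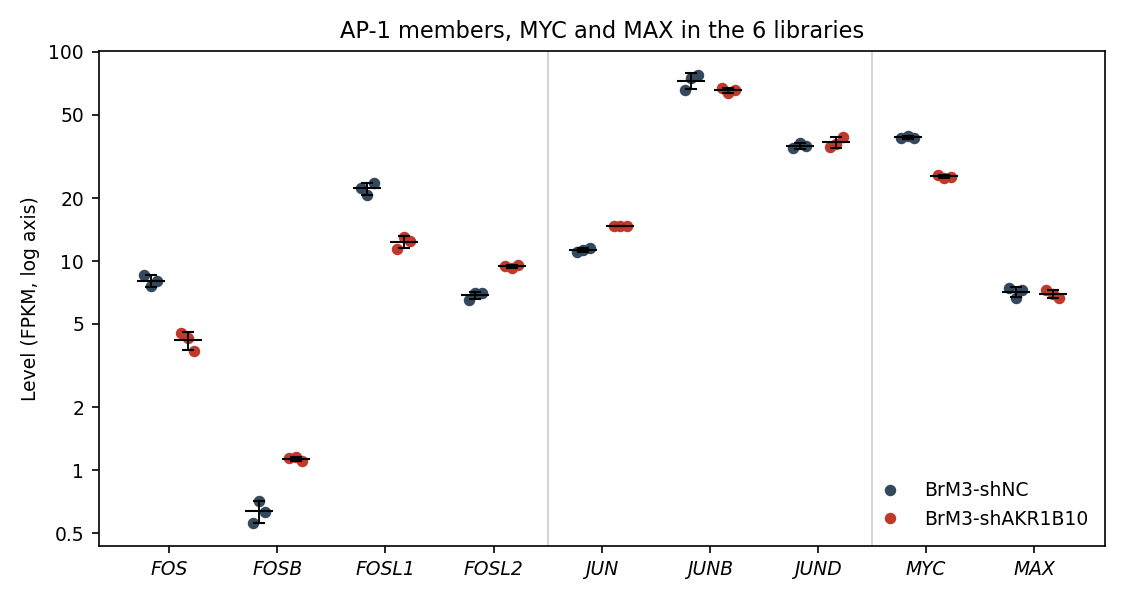
Level of each member in the 6 libraries, in FPKM on a log axis, with points for single libraries, a horizontal bar for the mean and error bars for the SD of 3 libraries. The points of FOS, FOSL1 and MYC in BrM3-shAKR1B10 lie below those of BrM3-shNC, the points of FOSB, FOSL2 and JUN lie above, and those of JUNB, JUND and MAX overlap.

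FOS (ENSG00000170345, GRCh38, chromosome 14 from 75278774 to 75282230, plus strand) encodes the founding FOS protein, a classic immediate early gene product that is made within minutes of a stimulus and degraded fast. It was at 4.51, 4.29 and 3.71 FPKM in the silenced libraries and at 8.58, 7.56 and 8.04 FPKM in the controls. Every silenced library lay below every control library, and the mean was 51.7% of the control level. The log2 fold change was -0.94 (standard error 0.0849, 95% interval -1.14 to -0.73, adjusted p = 0.000299 from limma). FOS was the 239th lowest of the 980 genes that fell.

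FOSL1 (ENSG00000175592, chromosome 11 from 65892049 to 65900573, minus strand) encodes FRA1, a longer-lived FOS protein that lacks a strong transactivation domain and is known for its part in invasion of carcinoma cells. It was the most abundant FOS transcript, at 11.4, 13.004 and 12.5 FPKM in the silenced libraries and at 22.4, 20.7 and 23.6 FPKM in the controls. The groups were apart by more than the range within either of them. The log2 fold change was -0.85 (standard error 0.0682, 95% interval -1.01 to -0.69, adjusted p = 0.000182 from limma), and the mean was 55.4% of the control level.

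FOSL2 (ENSG00000075426, chromosome 2 from 28392448 to 28417312, plus strand) encodes FRA2, the other FOS protein without a strong transactivation domain. It was at 9.44, 9.26 and 9.60 FPKM in the silenced libraries and at 6.502, 7.02 and 6.998 FPKM in the controls, so that all silenced libraries were above all control libraries, opposite to FOSL1. Its log2 fold change of 0.46 (standard error 0.0455, 95% interval 0.35 to 0.57, adjusted p = 0.000438 from limma) stayed under the fold threshold. FOSB (ENSG00000125740, chromosome 19 from 45467995 to 45475179, plus strand), another immediate early gene, had 1.14, 1.16 and 1.11 FPKM in the silenced libraries and 0.559, 0.713 and 0.632 FPKM in the controls. These levels rested on 109 to 116 reads against 57 to 67 reads, with no overlap. Tested without the minimum level, FOSB had a log2 fold change of 0.75 (95% interval 0.38 to 1.13, adjusted p = 0.0229 from limma over 31583 genes). Of these 31583 genes, which include those below the minimum level, 2.98% were called higher, beside 5.83% of the 13150 genes of the main test.

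The makeup of the FOS transcript pool differed between the groups in each member. The 4 genes summed to 27.0 ± 0.623 FPKM in the silenced libraries and 37.8 ± 1.69 FPKM in the controls (SD, n = 3 each). FOSL1 made up 45.5% ± 2.13 of this sum in BrM3-shAKR1B10 and 58.8% ± 1.33 in BrM3-shNC (SD, n = 3 each). FOSL2 made up 34.9% ± 1.28 against 18.1% ± 1.26, FOS 15.4% ± 1.63 against 21.3% ± 1.07 and FOSB 4.20% ± 0.102 against 1.69% ± 0.267 (SD, n = 3 each). None of these 4 shares overlapped between the groups. The ratio of FOSL1 to FOSL2 was 1.21, 1.40 and 1.30 in the silenced libraries and 3.45, 2.94 and 3.37 in the control libraries. These shares and ratios are given as a description, with no test, and a share depends on all members of its sum.

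JUN (ENSG00000177606, chromosome 1 from 58780788 to 58784327, minus strand) encodes c-Jun, the JUN protein activated by the stress kinase JNK. Its values were 14.7, 14.7 and 14.6 FPKM in the silenced libraries and 11.02, 11.3 and 11.5 FPKM in the controls. The groups did not overlap, and the log2 fold change was 0.38 (standard error 0.0335, 95% interval 0.30 to 0.46, adjusted p = 0.000271 from limma), under the fold threshold. JUN and FOSL2 were the members that passed the adjusted p alone in the higher direction, which 19.4% of all genes tested did. Without the fold threshold, 5 of the 8 tested members passed in either direction, beside 42.5% of all genes tested.

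JUNB (ENSG00000171223, chromosome 19 from 12791496 to 12793315, plus strand), whose protein activates weakly and can oppose c-Jun, was the highest of the 9 in both groups. Its values of 67.0, 63.5 and 65.9 FPKM in BrM3-shAKR1B10 overlapped with 65.9, 74.8 and 77.8 FPKM in BrM3-shNC, since the first control library lay within the silenced range. The log2 fold change was -0.15 (95% interval -0.30 to 0.00327, adjusted p = 0.104 from limma). Without BrM3-shNC replicate 1 it was -0.22 (adjusted p = 0.00697 from limma), and with voom on the recovered reads -0.16 (adjusted p = 0.0230 from limma), both under the fold threshold. JUNB shares 259 of its 1820 exonic bases with HOOK2 on the other strand, and strand was not stated for the counting. HOOK2 itself was at 22.1 ± 1.06 and 21.2 ± 1.19 FPKM (SD, n = 3 each).

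JUND (ENSG00000130522, chromosome 19 from 18279760 to 18281622, minus strand), the JUN gene known for steady expression in resting cells, had 35.2, 36.4 and 39.3 FPKM in the silenced libraries and 34.5, 36.5 and 35.5 FPKM in the controls. The groups overlapped, with a log2 fold change of 0.06 (95% interval -0.06 to 0.17, adjusted p = 0.373 from limma). A change of JUND beyond the fold threshold thus lies outside this interval. The JUN family summed to 117.2 ± 2.62 FPKM in the silenced libraries and 119.6 ± 7.17 FPKM in the controls (SD, n = 3 each), which overlapped. Within it, JUN made up 12.6% ± 0.318 against 9.45% ± 0.388 and JUNB 55.9% ± 1.25 against 60.8% ± 1.63 (SD, n = 3 each), without overlap, while the shares of JUND, 31.6% ± 1.38 and 29.7% ± 1.28, overlapped. The FOS sum divided by the JUN sum was 0.231 ± 0.00941 in BrM3-shAKR1B10 and 0.317 ± 0.0243 in BrM3-shNC (SD, n = 3 each).

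**Figure D2:**
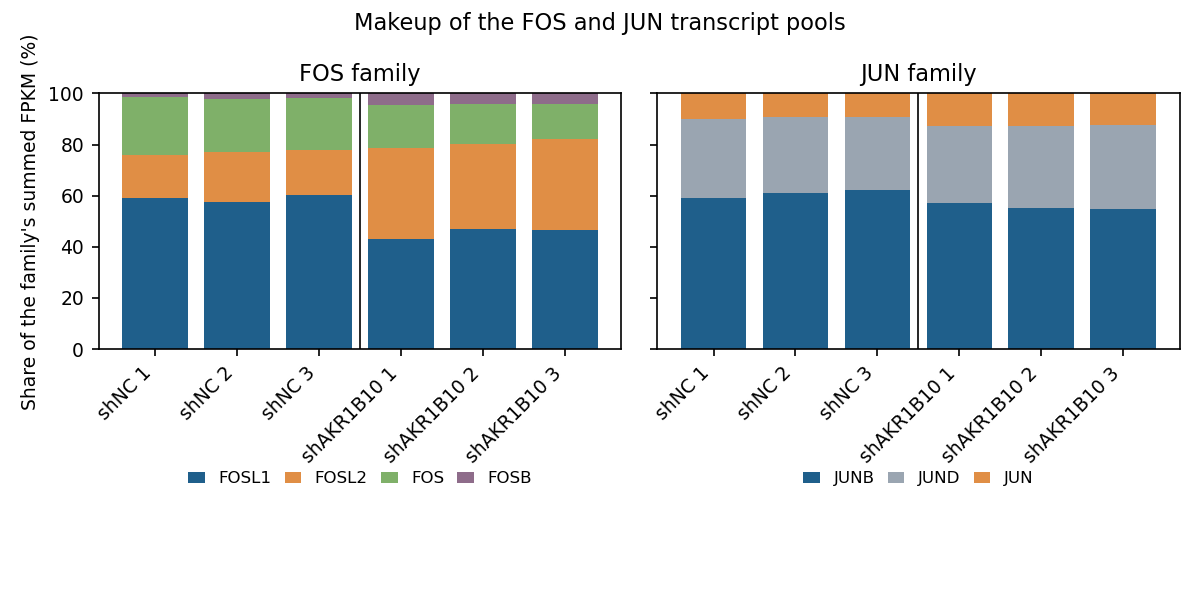
Share of each gene in the summed FPKM of the FOS family (left) and the JUN family (right), in percent, with 1 stacked bar for each library. FOSL1 takes between 57.4% and 60.1% of the FOS sum in BrM3-shNC and between 43.0% and 46.9% in BrM3-shAKR1B10, while the JUN family is led by JUNB in all 6 libraries.

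MYC (ENSG00000136997, chromosome 8 from 127735434 to 127741434, plus strand) was at 25.9, 25.0 and 25.3 FPKM in the silenced libraries and at 38.5, 39.6 and 38.8 FPKM in the controls, on 1348 to 1374 and 2012 to 2127 reads. The spread within a group was small beside the distance between the groups. MYC fell to 65.1% of the control level, with a log2 fold change of -0.62 (standard error 0.0306, 95% interval -0.69 to -0.54, adjusted p = 2.91e-05 from limma), the smallest adjusted p of the 8 tested members. It was the 651st lowest of the 980 genes that fell.

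MAX (ENSG00000125952, chromosome 14 from 65006174 to 65102695, minus strand), the obligate partner of MYC, had 7.29, 6.99 and 6.63 FPKM in the silenced libraries and 7.41, 6.65 and 7.29 FPKM in the controls. The groups overlapped, and the log2 fold change was -0.03 (95% interval -0.17 to 0.11, adjusted p = 0.737 from limma) and turned to 0.01 with TPM scaling. The ratio of MYC to MAX transcripts was 3.55, 3.58 and 3.82 in the silenced libraries and 5.20, 5.96 and 5.33 in the control libraries, again given with no test. MAX shares 184 of its 4430 exonic bases with the antisense gene AL139022.1, which was at 0.189 ± 0.168 and 0.0958 ± 0.0488 FPKM (SD, n = 3 each).

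**Figure D3:**
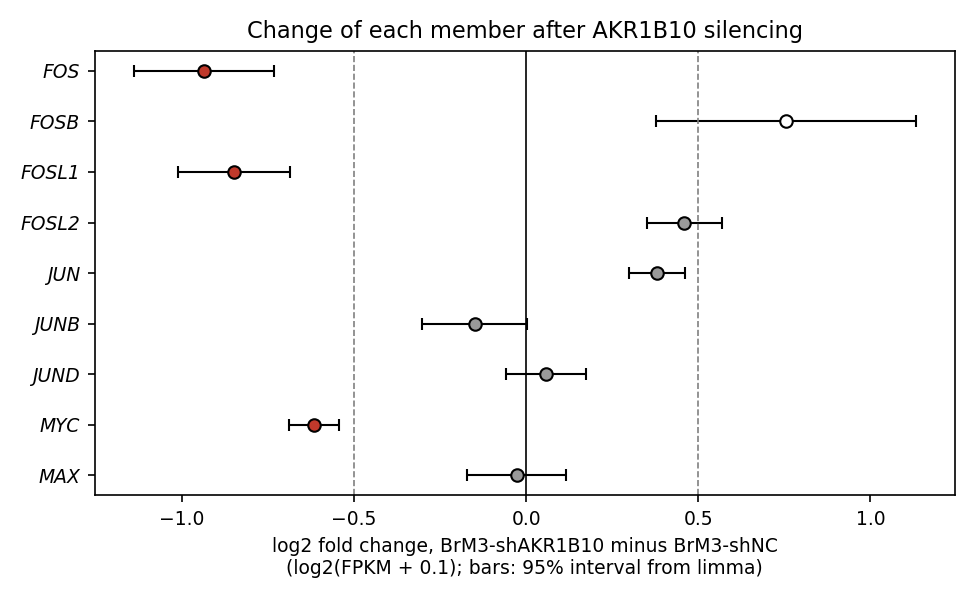
Log2 fold change of each member (BrM3-shAKR1B10 minus BrM3-shNC, on log2(FPKM + 0.1)), with 95% intervals from limma and dashed lines at the fold threshold of 0.5 in each direction. Filled red points mark FOS, FOSL1 and MYC, which fell. Gray points mark tested members that were not called, and the open point is FOSB from the fit with no minimum level.

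The order of the levels also differed. In BrM3-shNC it ran from JUNB (72.8 FPKM) over MYC (39.0), JUND (35.5), FOSL1 (22.2), JUN (11.3), FOS (8.06), MAX (7.11) and FOSL2 (6.84) to FOSB (0.635), and in this order only the values of MAX and FOSL2 overlapped between neighbors. In BrM3-shAKR1B10 it ran from JUNB (65.5 FPKM) over JUND (37.0), MYC (25.4), JUN (14.7), FOSL1 (12.3), FOSL2 (9.43), MAX (6.97) and FOS (4.17) to FOSB (1.14), with no overlap between neighbors. MYC and JUND thus changed places, as did FOSL1 and JUN, and FOS moved from above FOSL2 and MAX to below both. These are mean FPKM, in which reads are divided by the exonic length of the gene. The order thus depends on the lengths used, such as 7157 bases for FOSL2 and 1820 for JUNB.

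The exact two-sided permutation test over the 3 against 3 libraries gave p = 0.10, the smallest it allows, for FOS, FOSB, FOSL1, FOSL2, JUN and MYC. For JUNB, JUND and MAX it gave p = 0.20, 0.50 and 0.60 (exact permutation test). In this exact permutation test, p = 0.10 means only that the groups did not overlap, as in 54.7% of all genes tested.

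The members differ in gene structure. The annotated span of JUN, JUNB and JUND is exonic throughout, whereas exons make up 93.7% of FOS, 77.3% of FOSB, 50.01% of MYC, 28.8% of FOSL2, 22.1% of FOSL1 and 4.59% of MAX. AU-rich words in the 3′ UTR, such as ATTTA, are known as binding sites of proteins that shorten the life of immediate early transcripts. The coding transcript with the longest coding sequence held 5 ATTTA words in the 806 bases of the FOS 3′ UTR, 4 in the 476 bases of MYC and 9 in the 4864 bases of FOSL2, and between 1 and 3 in each of the other 6 members. ATTTA is a common word, found in 67.0% of the 3′ UTRs of tested genes, with a median of 2 per 3′ UTR. Per 1000 bases, FOS held 6.20 words and MYC 8.40, the most of any member. FOSL2 held 1.85 per 1000 bases, fewer than JUN, JUNB and MAX. The extended word TTATTTATT was found once each in FOS and FOSL2, whose log2 fold changes had opposite signs. It was found in 7.74% of the 3′ UTRs of tested genes.

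Promoters of 7 members (not FOSL1 and MYC) were matched in RefSeq (GRCh38.p14), from 250 bases before to 50 bases after the RefSeq gene start, and searched on both strands. For FOSL2 this start lies downstream of the start given above from the deposited table. The AP-1 site TGAGTCA was found in FOSL2 only and in 4.95% of all promoters in the table. The cyclic AMP response element TGACGTCA was found in JUND only and in 1.85% of all promoters. The E-box CACGTG, bound by MYC and MAX, and the CArG box, bound by SRF, were in none of the 7, and in 7.26% and 1.29% of all promoters. No match says only that these letters are absent from this window. The 2 sites are shown because a FOS family gene that was higher after silencing and a JUN gene whose groups overlapped carry them, with the motif in capitals.
FOSL2 AP-1 site: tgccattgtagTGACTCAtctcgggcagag
JUND response element: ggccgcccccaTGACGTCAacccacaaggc
The first stretch lies on the plus strand at chr2:28392851-28392880, in the 5′ UTR of FOSL2 and within the span of the antisense gene FLJ31356. The second lies on the minus strand at chr19:18281804-18281833, upstream of JUND and outside annotated genes. Each match is a description of letters and no measurement of binding.

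Other bZIP proteins can take the place of FOS or JUN in a dimer. Of 18 such partners, 11 were tested, and 1 fell and 1 rose, which is near the 7.45% and 5.83% of all genes tested, with a median log2 fold change of -0.05 (-0.01 over all genes tested). CREM, a cyclic AMP-responsive factor, was at 1.63 ± 0.177 against 2.52 ± 0.129 FPKM (SD, n = 3 each; log2 fold change -0.60, adjusted p = 0.00450 from limma), and with a pseudocount of 1 its -0.42 did not pass the fold threshold. JDP2, a repressor that pairs with JUN proteins, was at 8.05 ± 0.158 against 5.64 ± 0.262 FPKM (SD, n = 3 each; log2 fold change 0.51, adjusted p = 0.000371 from limma), and it did not pass the fold threshold with a pseudocount of 1 (0.45), without BrM3-shAKR1B10 replicate 2 (0.50) or BrM3-shNC replicate 1 (0.47).

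Of 12 genes of the MYC, MAX and MXD network, 10 were tested and none was called, while 2 had an adjusted p under 0.05 from limma in the lower and 1 in the higher direction. Of all genes tested, 13.3% were called in either direction, and 23.1% lower and 19.4% higher had an adjusted p under 0.05. By voom none was called either. The tested genes with the highest mean level were MLXIP, a glucose-responsive factor that pairs with MLX, at 11.2 ± 0.123 against 10.6 ± 0.229 FPKM, and the MYC antagonist MXD4, at 9.82 ± 0.638 against 9.68 ± 0.357 FPKM (SD, n = 3 each). Of the relatives of MYC, MYCN was at 0 in all libraries, and MYCL, under the minimum level of the test, was at 0.524 against 0.260 FPKM without overlap.

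Immediate early genes respond to the same signals as FOS. Of 25 on the list, 18 were tested, and 3 fell and 1 rose, with a median log2 fold change of -0.23 and 12 of the 18 below 0. Among all genes tested, 6784 of 13150 were below 0, 7.45% fell and 5.83% rose. EGR1, a zinc finger factor induced by ERK and SRF, was at 11.04, 13.2 and 12.9 FPKM in the silenced libraries and at 39.7, 33.3 and 36.6 FPKM in the controls. EGR1 had the lowest log2 fold change of the 18 tested genes, -1.55 (SE 0.0886, adjusted p = 4.8e-05 from limma). Its relatives EGR2 (0.178 against 0.671 FPKM) and EGR3 (0.100265 against 0.391 FPKM) were at 26.5% and 25.6% of the control level. These shares rest on low values, and both genes lay under the minimum level of the main test. Also under it were EGR4, whose groups overlapped (0.244 against 0.266 FPKM), and NR4A2, an orphan nuclear receptor that was higher in each silenced library (0.911 against 0.584 FPKM). IER3, a survival factor, had a log2 fold change of -0.91, and MCL1, an anti-apoptotic BCL2 relative, had -0.56. BTG2, an antiproliferative target of p53, rose from 8.34 ± 0.493 to 13.7 ± 0.113 FPKM (SD, n = 3 each; log2 fold change 0.71).

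Among 24 kinases and factors that act upstream of AP-1, 22 were tested, none fell and 2 rose, beside 7.45% lower and 5.83% higher among all genes tested. In the lower direction, 11 of the 22 had an adjusted p under 0.05 from limma, beside 23.1% of all genes tested, and their changes were all under the fold threshold. MAPK11, a p38 kinase, rose from 7.96 ± 0.613 to 16.999 ± 0.441 FPKM (SD, n = 3 each; log2 fold change 1.09, adjusted p = 4.7e-05 from limma). RPS6KA2, a kinase activated by ERK, rose from 2.37 ± 0.148 to 3.67 ± 0.185 FPKM (SD, n = 3 each; log2 fold change 0.61), and with a pseudocount of 1 its 0.47 did not pass the fold threshold.

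AP-1 target genes moved in both directions. Of 35 on the list, 24 were tested, and 6 fell and 3 rose, with a median log2 fold change of -0.06, beside 7.45% lower and 5.83% higher among all genes tested. Without BrM3-shAKR1B10 replicate 2 only 3 of them fell, and with a pseudocount of 1 only 1 fell. CXCL8, a chemokine that attracts neutrophils, was at 5.24 ± 0.4996 against 16.5 ± 0.512 FPKM (SD, n = 3 each; log2 fold change -1.64, adjusted p = 2.1e-05 from limma). HMGA2, a chromatin protein, had a log2 fold change of -0.59, which with a pseudocount of 1 was -0.41, under the fold threshold. HBEGF, a ligand of the EGF receptor, had -0.63 (adjusted p = 0.0425 from limma), which did not pass with the replicate number as a block (adjusted p = 0.0762 from limma) and passed in only 1 of the 6 fits that left out a library. SPP1, the secreted protein osteopontin, rose from 45.3 ± 0.364 to 111.5 ± 6.39 FPKM (SD, n = 3 each; log2 fold change 1.30, adjusted p = 1.1e-05 from limma). F3, which encodes tissue factor, rose with a log2 fold change of 0.67. SPRR1A, a protein of the cornified envelope, rose by 3.54 on the log2 scale, or by 1.58 with a pseudocount of 1, on 7 to 15 reads in BrM3-shAKR1B10 and at most 1 read in any BrM3-shNC library. SPRR1A reached the minimum level only through the silenced libraries, so it had to differ once tested, and it was not tested without BrM3-shAKR1B10 replicate 3.

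Of 62 genes known to be induced by MYC, 59 were tested, and 8 fell and none rose, with a median log2 fold change of -0.17 and 51 of the 59 under 0. Of all 13150 genes tested, 6784 were under 0, and 7.45% fell. Only 6 of the MYC-induced genes fell with a pseudocount of 1, and likewise with TPM scaling. The same count of 6 was found without BrM3-shAKR1B10 replicate 1 and without BrM3-shNC replicate 1. The lowest were TYMS, thymidylate synthase, at 7.29 ± 0.350 against 13.9 ± 1.80 FPKM (SD, n = 3 each; log2 fold change -0.91), the histone-binding protein PTMA, at 312.8 ± 19.2 against 539.7 ± 9.72 FPKM (SD, n = 3 each; log2 fold change -0.79), and LDHA, lactate dehydrogenase A, with a log2 fold change of -0.79. None of these 3 acts in ribosome production. The other genes that fell are not named here, and the list's genes of ribosome production were not looked at apart. PTMA and LDHA have pseudogenes of similar sequence, and the part of pseudogene reads in their counts was not tested. For LDHA, the paper also reports lower mRNA by qPCR and lower protein by western blotting after silencing. In the lower direction, 31 of the 59 had an adjusted p under 0.05 from limma, beside 23.1% of all genes tested, most of them with changes under the fold threshold.

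Of 14 genes known to be repressed by MYC, 13 were tested, and 3 rose and none fell, beside 5.83% higher and 7.45% lower among all genes tested, with a median log2 fold change of -0.01 in both. TXNIP, which inhibits thioredoxin and glucose uptake, rose from 46.5 ± 0.563 to 88.8 ± 0.578 FPKM (SD, n = 3 each; log2 fold change 0.93, adjusted p = 8.72e-06 from limma). CDKN1A, the inhibitor p21 of cyclin-dependent kinases, rose from 8.42 ± 0.390 to 13.6 ± 0.404 FPKM (SD, n = 3 each; log2 fold change 0.68). CDH2, N-cadherin, rose from 0.696 ± 0.0491 to 1.75 ± 0.128 FPKM (SD, n = 3 each; log2 fold change 1.22, or 0.70 with a pseudocount of 1), and likewise reached the minimum level only through the silenced libraries.

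Among 33 cofactors of MYC and genes of its turnover, all were tested, 5 fell and none rose, beside 7.45% and 5.83% of all genes tested, with a median log2 fold change of -0.13 against -0.01 over all genes. AURKA, a mitotic kinase that also shields MYC proteins from degradation, was at 19.9 ± 0.707 against 50.04 ± 0.955 FPKM (SD, n = 3 each; log2 fold change -1.33, adjusted p = 8.72e-06 from limma). CIP2A, an inhibitor of the phosphatase PP2A, had a log2 fold change of -0.88, SKP2, a ubiquitin ligase subunit, -0.88, USP28, a deubiquitinase, -0.75, and ACTL6A, a chromatin remodeling subunit, -0.62. AURKA and SKP2 are also genes of the cell cycle, and whether their decrease bears on MYC was not tested.

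For the member with the largest change in each family, the tested genes with the closest pattern over the 6 libraries were taken by Pearson's r on log2(FPKM + 0.1). The closest to FOS were NUP43, a nuclear pore protein, PBRM1, a chromatin remodeling subunit, and LINC00857, a noncoding RNA, with r between 0.997 and 0.999. The closest to JUN were TP53I3, an oxidoreductase induced by p53, SUSD2, a membrane protein, and ACSF2, an acyl-CoA synthetase, with r of 0.999 each. The closest to MYC were JPT2, the noncoding RNA AL365181.3 and CYTH1, an exchange factor of ARF proteins, with r between 0.9994 and 0.9996. All 6 libraries fall into 2 groups, which sets these values of r, and they are a description only.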

How the data were processed

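Poly-A RNA of PC9-BrM3 cells was sequenced as paired-end reads, which the authors aligned with HISAT2 2.0.5 and counted per gene with featureCounts 1.5.0-p3 (versions also in the submitters' processing notes). The authors deposited FPKM values for 58735 genes, all matching GENCODE 29 (GRCh38) in identifier, position and strand. The build and the strand setting are not given in the sources used here. FPKM times gene length was divided by the value of 1 read, which was estimated in each library. The result was a whole number within 0.01 for 100% of values above 0, which gave reads per gene. These and the limit of 3 reads cover counting error only.

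Groups came from the sample titles. Genes whose FPKM averaged 1 or more over the libraries were compared on log2(FPKM + 0.1), a scale that understates changes of low genes, with limma 3.58.1 in R 4.3.3 (eBayes with a trend, Benjamini-Hochberg over 13150 genes). Descriptions and exact permutation tests used Python 3.11.15 with scipy 1.17.1. Scripts were checked on simulated data.

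The members and lists were chosen with earlier results of these data known. The 8 lists were written from general knowledge. Of each list, all called genes are named up to 6, otherwise the 3 lowest and 3 highest, and with none called the 2 with the highest level. MYCN, MYCL, ERCC1, HOOK2, AL139022.1, EGR2, EGR3, EGR4, NR4A2 and the marker genes were named after their values were seen. The search of 3′ UTRs and promoters was also added then. Alternatives were a pseudocount of 1, no filter, TPM, voom with TMM factors, the replicate block, the adjusted p alone, and each library left out.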

Additional observations from a re-analysis of the deposited data

How the results depend on the processing

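FOS, FOSL1 and MYC fell under all 12 alternatives, with log2 fold changes between -0.99 and -0.81, -0.90 and -0.79, and -0.63 and -0.58. With no filter 1 member rose (FOSB), and 5 immediate early genes fell. With the adjusted p alone, 2 members rose (JUN and FOSL2), and 3044 of all genes fell and 2548 rose. The genes then lower and higher were 4 and 2 for the bZIP partners, 2 and 1 for the MYC, MAX and MXD network, 9 and 2 for the immediate early genes, 11 and 8 for the AP-1 targets, 31 and 1 for the MYC-induced genes, and 16 and 2 for the MYC cofactors. In the same setting 11 upstream genes were lower and 3 higher, and 1 MYC-repressed gene was lower and 4 were higher. With TPM scaling, 873 of all genes fell and 902 rose, against 980 and 766. A pseudocount of 1 left 708 of all genes lower and 497 higher, 0 bZIP partners lower, 0 higher, 1 upstream gene higher and 1 AP-1 target lower. Leaving out single libraries, between 0 and 1 bZIP partners rose and between 3 and 5 AP-1 targets fell, the lowest count without BrM3-shAKR1B10 replicate 2. With TPM scaling and voom, the median over all genes was 0.03 and -0.02, against -0.01.

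After subtracting group means, libraries that share a replicate number had correlations from -0.0155 to 0.00388, which gives no sign of pairing. With the replicate block, 967 genes fell and 719 rose, and of the tested members and the named genes of the 8 lists only HBEGF lost its call.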

Other observations

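The AU-rich word TTATTTATT, present in the 3′ UTR of FOS and FOSL2, was looked at over all tested genes after the values of the members were seen. Of the 820 tested genes that hold it, 7.44% fell and 3.41% rose, with a median log2 fold change of -0.03. Of the 9779 tested genes with a 3′ UTR that lack it, 8.09% fell and 4.86% rose, with the same median of -0.03. The 3′ UTRs of the first set were longer, with a median of 2714 against 884 bases.

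ERCC1, a DNA repair gene whose span on the other strand covers FOSB but shares no exonic base with it, was at 12.7 ± 0.0881 FPKM in the silenced libraries and 10.8 ± 0.799 FPKM in the controls (SD, n = 3 each), with limma giving 0.24 on the log2 scale (adjusted p = 0.0169). Reads of an unspliced ERCC1 transcript within FOSB cannot be told apart from FOSB reads where counting ignores strand, and the part of this in the FOSB values was not tested.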
